A study of Mus musculus with 10 samples.

Results

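Gli1-transcript-positive cells were studied at the enthesis of the mouse supraspinatus, where a tendon of the shoulder attaches to bone. A cell was a member when its droplet barcode had at least 500 detected genes, at most 10% mitochondrial counts, at least 1 UMI of Gli1 and 0 UMIs of the leukocyte gene Ptprc, a UMI being 1 counted RNA molecule. Of 14371 barcodes, 13479 passed the filters on genes and mitochondrial counts, and 423 of these were members. They were 151 of 2952 cells at postnatal day 11 (P11), 169 of 5396 at P18 and 103 of 5131 at P56. Members were chosen by their Gli1 and Ptprc UMIs, so the values of these genes are descriptions and were not tested. Each member was compared with 5 Gli1-zero cells of the same library, nearest in total UMIs, that had 0 Ptprc UMIs and at least 2 UMIs of Col1a2, a collagen gene of connective tissue. There were 755, 845 and 515 of these depth-matched controls at P11, P18 and P56.

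The 3 droplet libraries came from untreated wild-type mice (strain C57BL/6 in the labels, C57BL/6J in the protocol), with the dissected entheses of each age pooled. The protocol describes a sort for cells without staining for Cd45, the protein made from Ptprc, or for the dead-cell dye DAPI. The other 7 libraries were plates of single wells from Gli1CreERT;Ai14 mice of 7 ages (P11 and P18 again, and also P7, P14, P21, P28 and P42), given tamoxifen at P5 and P7. In these mice tamoxifen activates a Cre recombinase made in Gli1-expressing cells, which switches on a red fluorescent protein in them and their descendants. It is unclear from the protocol's wording if the plate sort kept or removed red cells, and P14 is missing from its ages. Every age was 1 library in each assay, so no age was tested against another, and the number of animals in a pool is not given in the sources used here.

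The droplet libraries held 44104990, 53725468 and 40082499 counts at P11, P18 and P56. Median UMIs per cell were 14299, 10993 and 8182 in members and 14294, 10938 and 8180 in their controls. Pairs of libraries shared between 4 and 9 barcodes. Xist was found in 90.7% of P11 members, 35.5% of P18 members and none of the 103 at P56, and any of 4 Y-linked genes in 11.3%, 52.7% and 66.0%, so age cannot be told apart from this makeup. No P56 cell had a Ptprc UMI.

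Gli1 encodes a zinc-finger activator at the end of the Hedgehog pathway and is itself a target gene of it. Hedgehog ligands bind the receptor Ptch1 with the co-receptors Cdon, Boc and Gas1, which frees the transducer Smo to act at the primary cilium on Gli2 and Gli3. These factors switch on targets that include Gli1, Ptch1 and Hhip, a decoy that binds the ligand. In growing cartilage, Indian hedgehog (Ihh) and parathyroid hormone-related protein (Pthlh) regulate each other, and Hedgehog-responsive cells are known from the mineralising fibrocartilage of the tendon enthesis.

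The rule rested on few Gli1 molecules per cell. Of the 423 members, 371 had 1 Gli1 UMI, 42 had 2 and 10 had 3 or more, and the highest number in a cell was 4. Most members thus sat at the threshold, next to cells with 0. Cells with Gli1 and Ptprc together, 3 at P11, 6 at P18 and 0 at P56, were left out. Only 25 of the members had fewer than 2 Col1a2 UMIs.

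At P11, members made up 6.00% of the 2516 Ptprc-zero cells, with an exact binomial 95% interval from 5.11 to 7.00. The share at P18 was 5.91% of 2860 cells (5.07 to 6.84), and the share at P56 2.01% of 5131 cells (1.64 to 2.43). The median depths of these cells were 13848.5, 7926 and 6146 UMIs. With every cell thinned to 2000 UMIs, which left out 58, 210 and 214 shallower cells, the shares were 0.976%, 1.51% and 0.651%. The Ptprc-zero cells at P11 and P18 included 95 and 626 cells of myeloid-like and B cell-like clusters, with 0 members. Among Ptprc-zero cells with at least 2 Col1a2 UMIs, the shares with all UMIs were 6.35%, 11.3% and 2.31%. At 2000 UMIs these were 1.03%, 2.66% and 0.724%. Cells that should lack Gli1 give the background. Among Ptprc-positive cells, 3 of 436 at P11 (0.688%, median depth 11724) and 6 of 2536 at P18 (0.237%, median 6747.5) had a Gli1 UMI, and among endothelial-like cells 1 of 76 at P11 and 0 of 478 at P56. The last count allows a share of up to 0.628% at a median depth of 4279.5 UMIs. With all UMIs the share in Ptprc-zero cells was above these values at each age, though the 76 endothelial-like cells at P11 set only a loose bound. At 2000 UMIs it was above the share in Ptprc-positive cells, 1 of 430 at P11 (0.233%) and 0 of 2421 at P18. At P11 it was not above that of endothelial-like cells, where 1 of 74 was 1.35%. At P56, 0 of 395 endothelial-like cells had Gli1, which allows up to 0.759%, a limit above the 0.651% of Ptprc-zero cells. The 10 endothelial-like cells at P18, with 0, allow up to 30%. All intervals here cover counting error only.

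Members were not spread over the tissue's cell classes as their depth-matched controls were. Cells were clustered on variable genes without Gli1 and named from marker genes. At P11, 54 of 151 members (35.8%, interval 28.1 to 44.0) were in chondrocyte-like clusters against 8.48% of controls, and 20 (13.2%) in the osteoblast-like cluster against 4.64%. Connective-tissue fibroblast-like clusters held 41 members (27.2%) against 39.2% of controls, and tendon fibroblast-like clusters 26 (17.2%) against 36.6%. P11 members thus held more skeletal and fewer fibroblast-like cells than their controls. Controls, unlike members, had to carry at least 2 Col1a2 UMIs, and 1, 18 and 6 members at P11, P18 and P56 had fewer. Class shares with this filter on members too are not given.

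At P18 the skeletal share was larger still. Chondrocyte-like clusters held 81 of 169 members (47.9% against 35.0% of controls) and the osteoblast-like cluster 60 (35.5% against 21.4%). Tendon fibroblast-like clusters held 21 (12.4% against 24.7%) and connective-tissue fibroblast-like clusters 7 (4.14% against 14.8%). The osteoblast-like cluster, led by Dkk1, Ibsp and Alpl, also passed 6 chondrocyte markers, so its name marks mineralising skeletal cells in a broad sense.

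At P56 no member was chondrocyte-like and 1 was osteoblast-like. Connective-tissue fibroblast-like clusters held 38 of the 103 members (36.9% against 31.1% of controls), a mesenchymal-like cluster led by S100g 24 (23.3% against 13.8%) and tendon fibroblast-like clusters 15 (14.6% against 28.2%). A further 18 (17.5%) were in clusters without a name, 16 of them in a cluster led by Crabp2 that passed 4 connective-tissue fibroblast markers and went unnamed because of its leading genes. Another 4 were mural-like and 3 joint lining-like. With 1 library per age these shares have no test between ages.

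**Figure D1:**
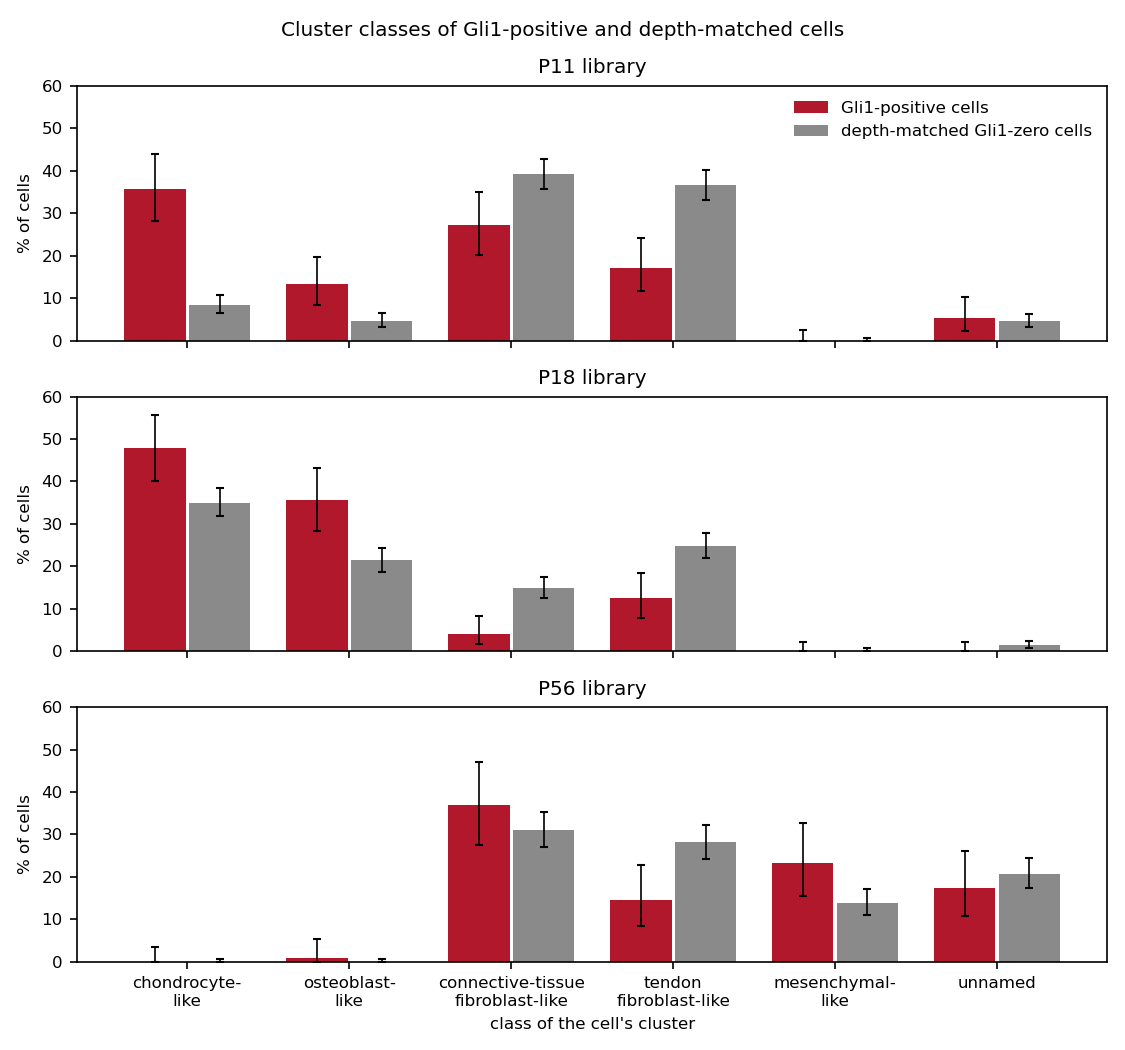
Share of Gli1-transcript-positive cells (members) and of depth-matched Gli1-zero controls in each cell class, in percent of cells, for the P11, P18 and P56 libraries, with exact binomial 95% intervals. Chondrocyte-like cells make up 35.8% and 47.9% of members at P11 and P18 and none at P56.

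Read the other way, the share of each class with a Gli1 UMI was highest in skeletal clusters. It was 19.9% of chondrocyte-like cells at P11 and 13.6% at P18, and 21.3% and 19.5% of osteoblast-like cells. Connective-tissue fibroblast-like cells had 4.46%, 3.74% and 2.51% at P11, P18 and P56, and tendon fibroblast-like cells 3.03%, 6.09% and 0.998%. At 2000 UMIs per cell the shares were 3.38% and 3.40% in chondrocyte-like cells, 3.19% and 5.28% in osteoblast-like cells, and between 0.118% and 1.08% in both fibroblast-like classes. The order of skeletal over fibroblast-like classes was therefore the same at matched depth.

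Tendon fibroblast-like clusters differed among themselves. The cluster led by Tnn, Barx2 and Gdf5, the last a signal of developing joints, had Gli1 in 7.57% of 185 cells at P11 (interval 4.20 to 12.4) and 6.40% of 328 at P18 (4.01 to 9.62). In the cluster led by Mfap4 and Tnmd, a gene of mature tendon cells, the share at P11 was 1.78% of 673 (0.925 to 3.09). At P56 the share was 4.12% in the mesenchymal-like cluster led by S100g and between 0.784% and 2.94% in the 4 connective-tissue and tendon fibroblast-like clusters with members and over 50 cells. A further such cluster had only 16 P56 cells, 3 of them members.

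**Figure D2:**
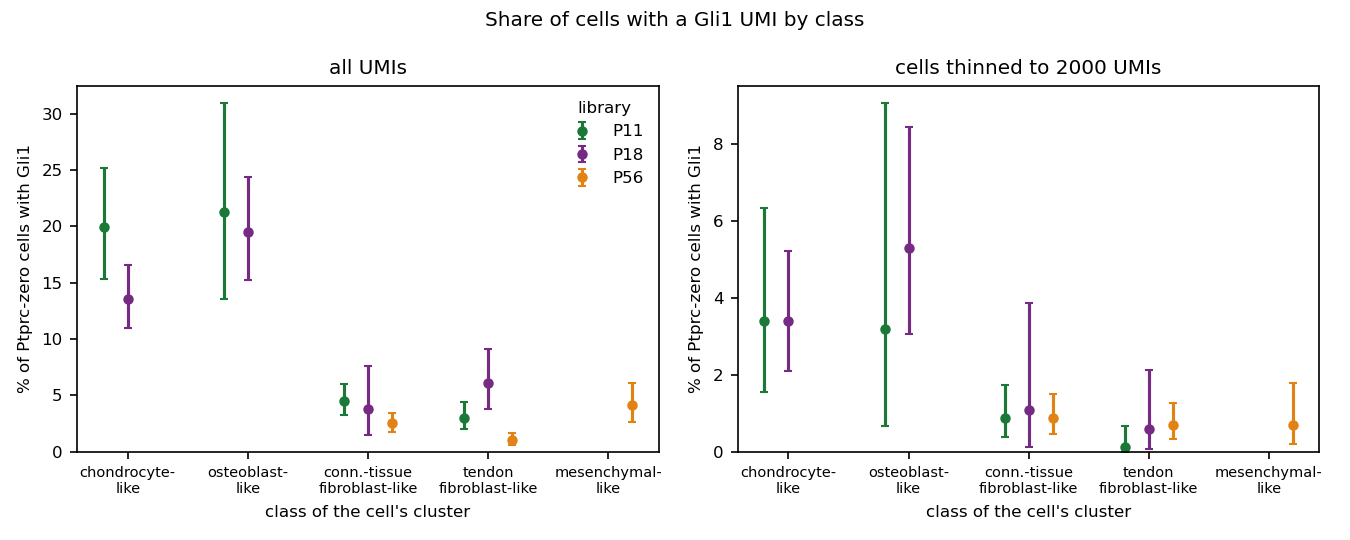
Percent of Ptprc-zero cells with at least 1 Gli1 UMI in 5 cell classes at P11, P18 and P56, with all UMIs (left) and with each cell thinned to 2000 UMIs (right), for classes with at least 50 cells in a library. Bars are exact binomial 95% intervals, and the chondrocyte-like and osteoblast-like points lie above the fibroblast-like ones in both panels.

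Of the 2 other genes that mark the label, Ptch1 and Hhip, both were found more often in members. Ptch1, the Hedgehog receptor and a target, stood at 55.4, 105 and 30.7 CPM (counts scaled to a library of 1e6 for the summed cells) in members at P11, P18 and P56, against 18.3, 52.4 and 7.30 in controls. Its UMIs were in 41.1%, 51.5% and 11.7% of members against 16.6%, 28.6% and 6.99% of controls. The member value was the higher one in each library.

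Hhip stood at 44.9, 51.3 and 36.5 CPM in members against 18.0, 26.8 and 22.3 in controls, and was found in 24.5%, 28.4% and 8.74% of members against 5.43%, 14.7% and 3.30%. At P56 most of it came from joint lining-like cells, with 22 of 38 member UMIs in 3 cells and 99 of 116 control UMIs in 9 cells. Neither Ptch1 nor Hhip was found in 70 of 151 P11 members (46.4%), 63 of 169 at P18 (37.3%) and 82 of 103 at P56 (79.6%), against 80.0%, 63.0% and 89.7% of controls. Ptch1 and Hhip together were in 18 of 151 P11 members, 29 of 169 at P18 and 0 of 103 at P56, which allows up to 2.91%. At the depth sequenced, 215 of the 423 members thus carried no UMI of either target.

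**Figure D3:**
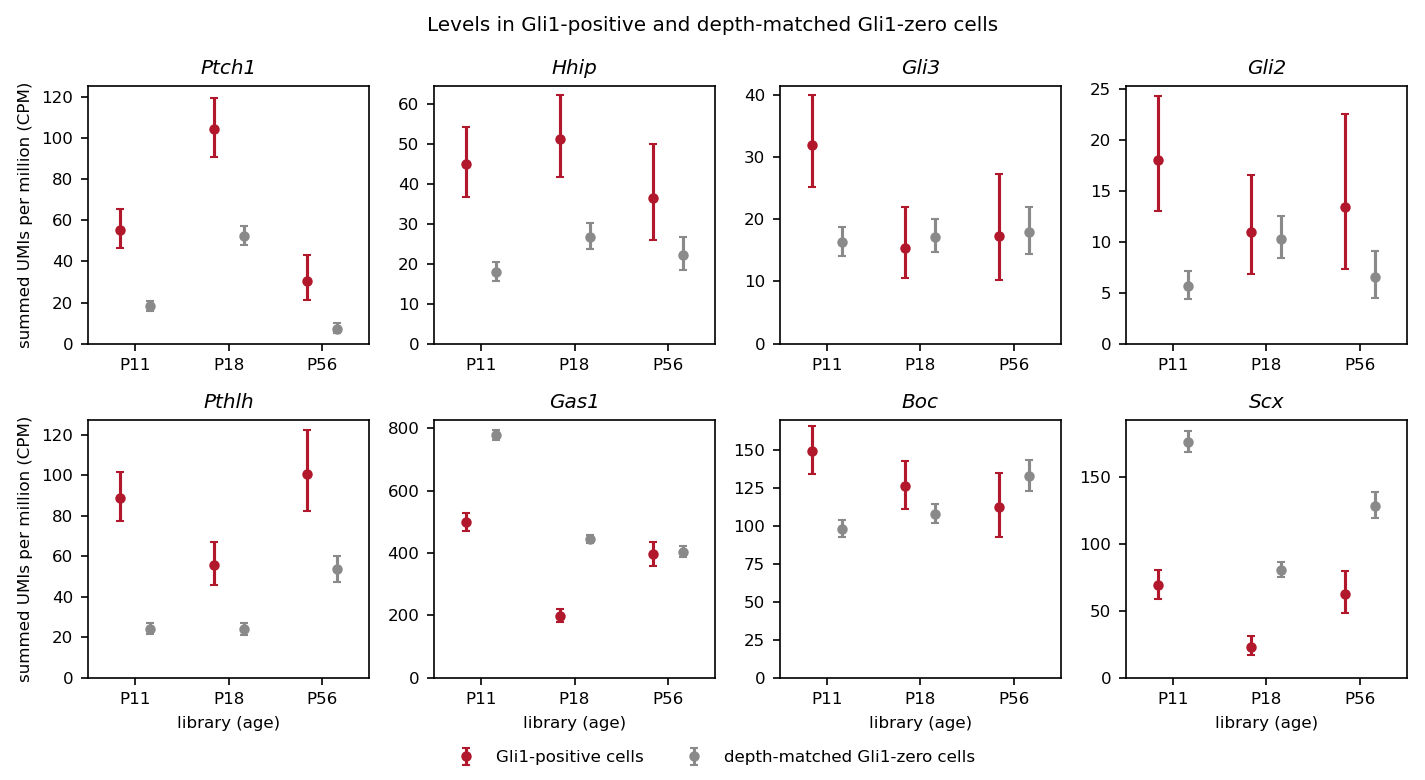
Level of 8 genes in CPM of summed cells, in members and in depth-matched controls of the P11, P18 and P56 libraries, with exact Poisson 95% intervals on axes that start at 0. Ptch1 and Hhip are higher in members in each library, and Scx is lower in each.

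The difference was tested with edgeR on the 6 sums of cells (3 libraries, members and controls), with the library as a block. Ptch1 was 1.47 higher on the log2 scale (SE 0.19, adjusted p = 0.0792) and Hhip 1.06 higher (SE 0.17, adjusted p = 0.119), neither past 0.05. Under 16 other settings of this comparison Ptch1 passed in 5, DESeq2 among them, and Hhip in 2. Of 11600 genes tested, 0 were called higher (0%) and 10 lower (0.0862%). At an unadjusted p under 0.05, 592 were higher (5.1%) and 739 lower (6.37%), and DESeq2 called 18 higher (0.155%) and 14 lower (0.121%). Without regard to a test, 1398 genes (12.1%) were higher and 2340 (20.2%) lower in members of all 3 libraries. With 2 residual degrees of freedom, the spread of the fit is between libraries of different age. Its p-values also lean on the spread that edgeR shares across genes. Without the P56 library 45 genes were called higher (0.375% of 12015) and 118 lower (0.982%).

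With controls matched on cluster as well as depth, the log2 difference was 0.47 for Ptch1 and 0.28 for Hhip, and 0 of 10154 genes were called in either direction (0%), with 517 at an unadjusted p under 0.05. Both differences were smaller than with depth-matched controls. The next comparison therefore asked, within clusters of one kind, where the difference between members and Gli1-zero cells lay.

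This comparison was added after the first results had been seen. Fibroblast-like clusters (connective-tissue, tendon and mesenchymal-like) held 67, 28 and 77 members at P11, P18 and P56, and chondrocyte-like and osteoblast-like clusters 74 at P11 and 141 at P18. The skeletal clusters held 1 member at P56, which was left out. Clusters were made on variable genes that could include Ptch1 and Hhip. Members and controls of a fit came from the same set of clusters. Within that set they were matched on depth and not on cluster, so their mix of clusters can differ. A fibroblast-like fit matched on cluster too called 8 of 6656 genes higher and 2 lower. Its values for single genes are not given here.

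In fibroblast-like clusters Hhip was far higher in members. It stood at 51.8, 51.0 and 21.2 CPM in members at P11, P18 and P56, from 48 UMIs in 13 cells, 13 in 5 cells and 13 in 3 cells, of which 11 were in 1 cell at P56. With 10 depth-matched controls per member it stood at 3.34, 10.6 and 1.14 CPM in controls, so that members were 15.5-fold, 4.81-fold and 18.5-fold higher. The counts are small, and few cells carry them, but the order was the same at each age. In edgeR the log2 difference was 3.39 (SE 0.38, adjusted p = 0.00103). With 3 controls per member it was 4.70 (SE 0.47, adjusted p = 0.0138). In that draw the P18 controls had 0 Hhip UMIs in 84 cells, so it gives no fold for P18, and the fitted value is no bound. Without P11, this 3-control difference was 5.78 with adjusted p = 0.198.

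Ptch1 showed the same order in fibroblast-like clusters. Its level was 25.9, 78.4 and 42.3 CPM in members, from 24, 20 and 26 UMIs, against 9.49, 13.7 and 8.16 in the 10 controls per member. Members were 2.73-fold, 5.70-fold and 5.19-fold higher, and 14 of the 26 P56 UMIs were in 1 cell. In edgeR the log2 difference was 1.99 (SE 0.28, adjusted p = 0.00650) with 10 controls per member and 1.94 (SE 0.30, adjusted p = 0.0550) with 3. The size of the difference hardly moved between the 2 control sets, while the call did.

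In chondrocyte-like and osteoblast-like clusters Ptch1 was abundant in both kinds of cell. It stood at 78.4 and 108 CPM in members at P11 and P18 and at 73.3 and 80.4 in controls, and Hhip at 42.7 and 51.3 against 20.4 and 42.7. The log2 differences were 0.22 for Ptch1 (SE 0.14, adjusted p = 0.927) and 0.51 for Hhip (SE 0.21, adjusted p = 0.848). The Ptch1 level of Gli1-zero skeletal cells, 73.3 and 80.4 CPM, stood above that of fibroblast-like members at P11 (25.9 CPM) and close to it at P18 (78.4 CPM).

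The difference between the compartments was tested in 1 model over P11 and P18. With 3 controls per member the member difference of Hhip was 4.10 larger on the log2 scale in fibroblast-like than in skeletal clusters (SE 0.58, adjusted p = 0.0172), and that of Ptch1 1.58 larger (SE 0.39, adjusted p = 0.25). With 10 fibroblast-like controls the values were 2.78 (SE 0.43, adjusted p = 0.00500) for Hhip and 1.63 (SE 0.35, adjusted p = 0.0468) for Ptch1. In the first of these fits 11 of 9580 genes (0.115%) had a larger difference in fibroblast-like clusters and 1 (0.0104%) a smaller one, and in the second 31 of 10362 (0.299%) and 10 (0.0965%). Hhip passed in both fits, and Ptch1 only with the larger control set.

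**Figure D4:**
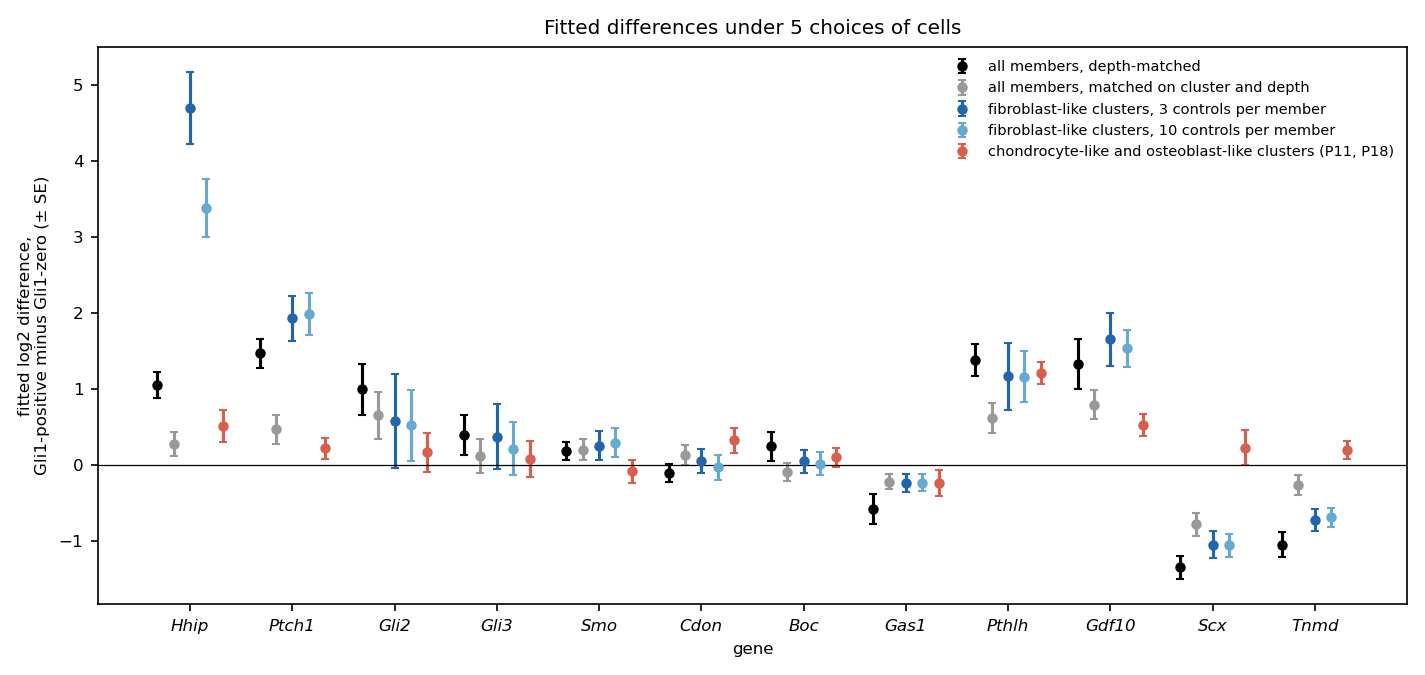
Fitted log2 difference (members minus Gli1-zero cells, with its SE) for 12 genes under 5 choices of cells. The Hhip and Ptch1 points of the fibroblast-like clusters lie at 3.39 to 4.70 and 1.94 to 1.99, and those of the chondrocyte-like and osteoblast-like clusters at 0.51 and 0.22.

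Other genes were called in fibroblast-like members. With 3 controls per member edgeR called 5 of 7662 genes higher (0.0653%) and 4 lower (0.0522%), and with 10 controls 14 of 9631 higher (0.145%) and 18 lower (0.187%). Rbp4, a retinol carrier, stood at 215, 874 and 83.1 CPM in members against 54.2, 243 and 19.6 in the 10 controls per member (log2 difference 1.90, SE 0.14, adjusted p = 8.33e-06). Igfbp4, which binds insulin-like growth factors, stood at 911, 392 and 264 against 519, 197 and 99.2 (0.99, SE 0.14, adjusted p = 0.00650). Both were higher in members of every library and were called with either control set, as were Csrp2, a LIM-domain protein (0.91), and Cldn1, a tight-junction protein (4.09). The Cldn1 value rested on 13, 1 and 23 member UMIs. With cluster-matched controls over all members, Rbp4 stood at 0.64 (adjusted p = 0.911 in edgeR) and Igfbp4 at 1.05 (adjusted p = 0.0515), neither called.

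Gdf10, a growth factor of the TGF-beta superfamily, stood at 93.8, 220 and 39.1 CPM in fibroblast-like members against 19.3, 72.3 and 26.8 in controls (log2 difference 1.54, SE 0.25, adjusted p = 0.0138 in edgeR with 10 controls, and 1.66 with adjusted p = 0.210 with 3). Of the 10 tendon genes, 8 lay below 0 in these members, and Scx, Tnmd, Thbs4 and Kera were called lower with 10 controls and Kera alone with 3. Scx, the transcription factor of the tendon lineage, stood at 130, 86.3 and 81.4 CPM against 226, 200 and 173 (-1.06, adjusted p = 0.00678 with 10 controls). Kera, a proteoglycan of tendon and cornea, stood at 805, 380 and 251 against 1441, 909 and 415 (-0.99, adjusted p = 0.00413). Tnmd stood at 1974, 592 and 238 against 2554, 1055 and 390 (-0.69, adjusted p = 0.0214). Kera passed with 3 controls as well, while Scx (adjusted p = 0.0927) and Tnmd (0.187) did not. Neither control set was matched on cluster. With cluster-matched controls over all members, Scx stood at -0.78, Tnmd at -0.27, Thbs4 at -0.58 and Kera at -0.77, none of them called. Gdf10 stood at 0.80 with these controls and was not called either (adjusted p = 0.462 in edgeR). S100g was called lower in edgeR with 3 controls (-2.81, adjusted p = 0.0497) and with 10 (-2.14, adjusted p = 0.0206). With cluster-matched controls over all members it was at -2.50 and did not pass (adjusted p = 0.0515). Tac1 was called lower with 3 controls but not with 10 (adjusted p = 0.136), and 71 of its 324 P56 control UMIs were in 1 cell. The cartilage collagen Col2a1 was also lower, at 168.2, 102 and 14.7 CPM in fibroblast-like members against 347, 246 and 107 (-1.51, SE 0.23, adjusted p = 0.00970 in edgeR with 10 controls), and did not pass with 3 controls (-1.48, adjusted p = 0.827). The cartilage list did not move one way: 9 of the 13 genes tested with 10 controls lay above 0, Col11a2 was called lower like Col2a1, and Hapln1, a linker of cartilage matrix, was called higher (1.31, adjusted p = 0.0231 in edgeR, and 0.0832 with 3 controls). Cells among the highest doublet scores were 2.99%, 7.14% and 5.19% of fibroblast-like members and 0.746%, 1.07% and 4.29% of the 10 controls per member. Without such cells the 3-control differences were 4.68 for Hhip (adjusted p = 0.00947) and 1.94 for Ptch1 (adjusted p = 0.0455).

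In skeletal clusters Pthlh, the parathyroid hormone-related signal of growing cartilage, was higher in members. It stood at 139 CPM at P11 and 63.3 at P18 in members, with UMIs in 48.6% and 32.6% of cells, against 51.9 and 29.3 CPM in controls, with UMIs in 26.6% and 15.4%. This fit had 4 sums from P11 and P18 alone and 1 residual degree of freedom, so its p-values lean on the spread that edgeR shares across genes. The log2 difference was 1.22 (SE 0.15, adjusted p = 0.0138), 1 of 2 genes called higher of 9709 tested (0.0206%), and 5 were called lower (0.0515%). The other, Mfap4, rested on 1 P11 cell for 125 of its 236 member UMIs. Mgp, an inhibitor of mineralisation, fell, from 6490.0 and 11454 CPM in controls to 4666 and 7942 in members (-0.56, SE 0.05, adjusted p = 0.00401). Over all members Pthlh stood at 89.0, 55.8 and 101 CPM against 24.3, 23.9 and 53.6 (1.38, SE 0.21, adjusted p = 0.112). With cluster-matched controls over all members the Pthlh difference was 0.62 (adjusted p = 0.807 in edgeR). In fibroblast-like clusters Pthlh stood at 35.6, 3.92 and 45.6 CPM against 15.6, 14.5 and 11.7, with a difference of 1.16 that did not pass (adjusted p = 0.272 with 10 controls).

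No receptor or transducer gene of the pathway was called over all members. Among the core Hedgehog genes, 9 were tested (Ptch1, Hhip, Smo, Cdon, Boc, Gas1, Gli2, Gli3 and Sufu) and none was called. Ptch1, Hhip, Smo and Gli2 were higher in members of 3 of 3 libraries and Gas1 lower. The median log2 difference of the 9 was 0.25, against -0.018 over all genes. Gli2, the main activator, stood at 18.0, 11.0 and 13.4 CPM against 5.63, 10.3 and 6.53 in depth-matched controls (1.00, SE 0.34, adjusted p = 0.345). Gli3, mainly a repressor, stood at 31.9, 15.4 and 17.3 against 16.3, 17.2 and 17.9 (0.39, adjusted p = 0.631). Gli3 was higher in members at P11, and its values were close at P18 and P56.

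Smo stood at 53.7, 49.3 and 29.8 CPM in members against 51.2, 44.5 and 25 (0.18, SE 0.12, adjusted p = 0.616). Of the co-receptors, Boc stood at 149, 126 and 112 against 98.1, 108 and 133, and Cdon at 91.1, 47.3 and 107 against 104, 58.5 and 99.7. Gas1 stood at 499, 199 and 396 against 779, 446 and 404 (-0.58, SE 0.20, adjusted p = 0.345), lower at P11 and P18 and close at P56. Matched on cluster, the differences of Boc and Cdon changed sign (-0.09 and 0.14), and that of Gas1 was -0.22. Of the 9 transducers, 8 were tested and none was called, with a median of -0.033. Of the 11 primary cilium genes, 10 were tested, none passed even an unadjusted p under 0.05, and their median was 0.098.

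Ligand transcripts were scarce in members. Members had 2, 6 and 1 Ihh UMIs (0.839, 2.99 and 0.960 CPM), Shh had 0 in both kinds of cell, and Dhh had 0 in members and 8, 1 and 2 UMIs in controls. Ihh in controls stood at 1.09, 4.00 and 0 CPM. Scube1, a secreted protein of the family that aids Hedgehog release, stood at 21.0, 75.7 and 8.64 CPM against 8.82, 41.8 and 0.769 (1.24, SE 0.28, adjusted p = 0.221). Matched on cluster its difference was -0.27. Of 8 other target genes, 4 were tested and none was called, and Ccnd1, a cyclin, stood at 29.4, 4.98 and 59.6 CPM against 51.5, 14.0 and 73.2 (-0.69, SE 0.19, adjusted p = 0.256).

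The 5 genes with the lowest p among those higher in all 3 libraries were Ptch1, Pkdcc, Barx1, Lgr6 and Wif1. Pkdcc, a secreted kinase of skeletal growth, stood at 70.9, 111 and 44.2 CPM against 40.3, 64.0 and 24.2 (0.86, SE 0.12, adjusted p = 0.0990). Wif1, a Wnt inhibitor, stood at 1137, 2116 and 168 against 419.9, 1211 and 71.1 (1.19, SE 0.17, adjusted p = 0.105). Barx1, a homeobox factor, and Lgr6, a receptor for R-spondins, were 1.15 and 1.57 higher, with the same adjusted p. None of these passed 0.05. On cluster, the differences were 0.45 for Pkdcc, 0.40 for Wif1, 0.21 for Barx1 and 0.30 for Lgr6.

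Lists of class genes were counted in the same fit. All 15 cartilage genes tested lay above 0, 9 of them higher in 3 of 3 libraries and none called, with a median of 0.90 that was -0.12 when controls were matched on cluster. Sox9, the cartilage master factor, stood at 420.1, 952 and 83.6 CPM against 174, 713 and 68.2 (0.71, adjusted p = 0.314). Of the 9 mineralisation genes tested, 6 lay above 0, with a median of 0.78 that was -0.31 on cluster. Of the 8 connective-tissue fibroblast genes all lay below 0, with a median of -0.79 against -0.012 on cluster. Medians were -0.014 for 6 joint lining genes, 0.12 for 17 skeletal signals, -0.22 for 10 cell cycle genes and 0.24 for 8 immediate-early and stress genes, with none called.

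Of the 10 tendon genes 9 lay below 0, 7 of them lower in 3 of 3 libraries, with a median of -0.63 that was -0.29 on cluster. Scx was called lower. It stood at 69.3, 23.4 and 62.4 CPM in members against 176, 80.7 and 129 in controls (-1.35, SE 0.15, adjusted p = 0.0422), and at -0.78 on cluster. Tnmd (-1.05, adjusted p = 0.112), Thbs4, a matrix protein of tendon (-1.30, 0.112), and Kera (-1.65, 0.160) were lower in all 3 libraries and did not pass. Ptx3, a secreted pattern-recognition protein, was called lower, at 9.23, 4.48 and 42.3 CPM against 26.6, 10.8 and 143 (-1.59, SE 0.17, adjusted p = 0.0422), and at -0.49 on cluster (adjusted p = 0.941).

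The other 8 genes called lower were granulocyte and myeloid genes: S100a8, S100a9, Lyz2, Camp, Ngp, Prtn3, Elane and Mpo, with log2 differences of -5.94 to -2.73. S100a8 stood at 0.839, 53.3 and 0 CPM in members and 29.6, 966 and 0 in controls. The 6 myeloid markers summed to 21.8, 149.8 and 12.5 CPM in members and 149, 1977 and 10.4 in depth-matched controls, and were found in 22.5%, 79.9% and 10.7% of members and 23.4%, 77.4% and 8.16% of controls. At P56 Lyz2, S100a8, S100a9, Csf1r and Tyrobp were at 0 in members. In cluster-matched controls the sums were 19.3, 152 and 14.5 CPM and the S100a8 difference was 0.14, and with controls drawn from clusters that hold a member 0 of 11553 genes were called in either direction (0%), with 1289 at an unadjusted p under 0.05. Endothelial markers summed to 15.1, 4.98 and 13.4 CPM in members and 108, 3.40 and 79.6 in depth-matched controls. The part of myeloid or endothelial RNA in the differences was otherwise not tested.

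Members with more Gli1 UMIs had more Ptch1 and Hhip over all 3 libraries, but not in each. The 52 members with 2 or more Gli1 UMIs, with a median depth of 14087.5 UMIs, had 89.2 CPM of Ptch1 and 86.5 of Hhip, against 65.6 and 39.2 in the 371 with 1 UMI, with a median of 11343. At P11 Hhip stood at 147 (20 cells) against 29.5 CPM, and at P18 at 56.2 (23 cells) against 50.3. At P56 the 9 cells with 2 or more Gli1 UMIs had 0 Ptch1 and 0 Hhip UMIs, with exact Poisson upper bounds of 34.4 CPM, against 34.3 and 40.7 CPM in the 94 others. These values carry no test, since the number of Gli1 UMIs is part of the rule.

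At 2000 UMIs per cell the share of cells with Ptch1 was 4.90, 6.31 and 1.37 percentage points higher in members than in depth-matched controls, and that of Hhip 7.81, 3.33 and 2.35 points. Scx was 12.8, 9.64 and 11.0 points lower and Sox9 19.1, 11.4 and 4.71 points higher. Each had the same sign in 3 of 3 libraries, where an exact two-sided sign-flip permutation test cannot go below 0.25 (adjusted p = 0.375 over 15 genes).

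The plates gave a similar measure in libraries outside the rule, from another assay and from tamoxifen-treated Gli1CreERT;Ai14 mice. Since the sort is unclear, wells without a Gli1 count may also be of the Gli1 lineage. On the 7 plates, 25 wells had a Gli1 count and were set against 125 depth-matched wells without one. Ptch1 had 7 counts in 3 wells (64.2 CPM) against 13 counts in 11 wells (23.9 CPM), and Hhip 3 counts against 4. Neither differed over plates (exact two-sided sign-flip permutation p = 0.5 for each, adjusted p = 1 over the 10 core genes), and the counts of both genes were low. Tnmd was lower in Gli1 wells on 7 of 7 plates (973 against 2031 CPM, exact permutation p = 0.0156, the smallest possible, adjusted p = 0.219 over 14 genes), and Scx on 5 plates and higher on none (55.1 against 390.3 CPM, exact permutation p = 0.0625, adjusted p = 0.292). Sox9 was higher on 5 of 7 plates (697 against 195 CPM, exact permutation p = 0.0938, adjusted p = 0.328).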

How the data were processed

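Single-cell RNA was measured in 3 droplet libraries and 7 plates. The deposited files hold raw counts for each gene in each barcode or well. Per the file headers, version 3.1.0 of the matrix software wrote P11 and P18, version 3.0.2 wrote P56. The genome build was mm10, per the submitters' processing notes. The aligner and annotation are not given in the sources used here.

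The members, gene lists and comparisons were chosen with earlier results of these data known. Controls were the Gli1-zero cells nearest in log total UMIs, without replacement. Counts were summed per library and arm and tested with edgeR 4.0.16 (R 4.3.3): TMM scaling, filterByExpr, a quasi-likelihood fit with library and arm, and Benjamini-Hochberg adjustment at 0.05. Gli1, Ptprc, Col1a2 and mitochondrial genes were left out before adjustment. Replicates of the difference are 3 libraries of different age. The p-values of all edgeR fits rest on the spread between libraries and on the spread that edgeR shares across genes. The skeletal fit and the test between compartments used P11 and P18 only, with 1 and 2 residual degrees of freedom. Alternatives included DESeq2 1.42.0. Clusters came from scanpy 1.11.5 (2000 variable genes, 30 components, 15 neighbours) and leidenalg 0.10.2 at resolution 1. A cluster was named when at least 3 markers of a class were 2-fold higher than in other cells and in at least 10% of its cells. The name was refused if another class had more markers among the 10 leading genes, or if the cluster was shallow and led by none of its own. A cluster with none of these names was mesenchymal-like when broad mesenchymal markers were common in it and its leading genes held no class marker. Names are rebuilt and not the authors'. The automatic scrublet threshold did not work, since it marked 0.0339%, 0.0185% and 0.0585% of cells, so doublets stayed in, and an alternative removed the 70, 233 and 211 highest scores. The scripts were tested on simulated data with an assumed spread (dispersion) of 0.05. The fit over all members recovered 32 of 100 genes changed by log2 1 and 94 of 100 changed by log2 2. Of 132 calls 6 were false. A change of log2 1 can thus go uncalled. Compartment fits, with 3 and then 10 controls per member, were added after seeing the data, the second because control Hhip counts differed between draws.

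Named were the Hedgehog genes listed, the called genes, the 5 lowest p among rises, and up to 4 genes from each other list. Genes named from the compartment fits were chosen after their values were seen. One gene of the Hedgehog lists is not reported here.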

Additional observations from a re-analysis of the deposited data

Results flagged for a closer look

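With depth-matched controls, some members' differences had opposite signs at different ages. The log2 ratios of members over depth-matched controls at P11, P18 and P56 were -0.79, -0.50 and 0.69 for Prkaca, a catalytic subunit of protein kinase A, 1.96, 0.53 and -0.50 for the cartilage collagen Col2a1, 0.97, 0.33 and -0.45 for Col11a1, and 0.83, 0.48 and -0.84 for Col11a2. They were -0.18, -1.22 and 0.45 for Tnc, a matrix protein of tendon, and 0.38, -0.56 and -0.38 for the stress gene Hspa1b. With controls matched on cluster they were -0.34, -0.26 and 0.62 for Prkaca and -0.054, -0.013 and 2.85 for Col2a1. Those of Col11a1 were 0.0087, -0.053 and -0.13, and those of Col11a2 -0.041, 0.022 and 0.35. Tnc then stood at 0.43, 0.42 and 0.63, with no change of sign, and Hspa1b at 0.065, -0.089 and -0.41. The differences between ages were not tested, with 1 library per age.

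The member difference differed between fibroblast-like and skeletal clusters for 12 genes by the interaction term of edgeR over P11 and P18, with 3 controls per member. Fibroblast-like minus skeletal, on the log2 scale, it was 4.74 for Cxcl2, 4.10 for Hhip, 2.35 for Spp1, 2.04 for Cxcl1, 1.92 for Col9a3, 1.84 for Hapln1, 1.78 for 3110079O15Rik, 1.72 for Gdf10, 1.71 for Ibsp, 1.40 for Peg3, 0.97 for Mgp and -1.87 for Mfap4. With 10 fibroblast-like controls Spp1 (1.25, adjusted p = 0.670), 3110079O15Rik (0.90, 0.679) and Ibsp (1.14, 0.0603) no longer passed in edgeR, and the other 9 did. Several of these are cartilage or bone genes on which the clusters were made. The Cxcl2 value rested on skeletal cells, where members had 3.88 and 0.570 CPM at P11 and P18 and controls 26.7 and 8.43.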

How the results depend on the processing

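Genes called over all members numbered 0 higher and 10 lower. The numbers higher and lower were 18 and 14 with DESeq2, 131 and 265 with no filter on low counts, 1 and 3 with 1 control per member, 0 and 2 with 2 controls, 1 and 15 with Col1a2 required of members too, and 0 and 1 without the highest doublet scores. No gene was called lower (0) with at least 10 counts in every sum, cluster-matched controls, controls from clusters that hold a member, members with 2 or more Gli1 UMIs, or no library block. Leaving out 1 library gave 0 to 45 higher and 2 to 118 lower, 6 and 2 without P18, 45 and 118 without P56, and 3 lower without P11. In fibroblast-like clusters (5 higher, 4 lower) cluster matching gave 8 and 2, 10 controls per member 14 and 18, and leaving out 1 library 0 to 13 higher and 0 to 4 lower, with none in either direction without P11. The numbers of genes tested also differed. Otherwise the cause was not tested.

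Of 151 listed or named genes fitted with both control sets, 54 changed sign with cluster-matched controls, 2 of them called in the first fit (Camp and S100a8). These included Cdon (0.14), Boc (-0.092), Camp (0.36), S100a8 (0.14), Sox9 (-0.20), Ibsp (-0.21) and Acan (-0.24). Signs also changed with members of 2 or more Gli1 UMIs for S100a8 (0.31), S100a9 (0.071), Ibsp (-0.42) and Col2a1 (-0.26), with controls from clusters that hold a member for Camp (0.073), and without P11 for Gli3 (-0.10, up to 0.63 without P18). Sufu, at -0.21, was 0.046 with 1 control per member, 0.0048 with 2, and -0.53 to 0.038 with 1 library left out.

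The share of Ptprc-zero cells with Gli1 was 0.976%, 1.51% and 0.651% at 2000 UMIs and 2.90%, 3.96% and 1.47% at 5000. With all UMIs it was 6.35%, 11.3% and 2.31% of cells with at least 2 Col1a2 UMIs. Under filters of 1000 genes and 5% mitochondrial counts it was 6.72%, 6.86% and 2.35%. The share of cells with Ptch1 was higher in members by 24.5 and 22.8 points at P11 and P18 with all UMIs and by 12.3 and 12.9 at 5000. That of Hhip was higher by 19.1 and 13.7 points with all UMIs and by 10.6 at 5000 UMIs at P18, and at P56 was -1.03 at 5000. Depth limits these shares. The planned 10 controls per member over all clusters were not run, since P18 had 1187 eligible cells of 1690.0 needed. Members and controls were paired by library, the block of the fit. No paired analysis was possible between ages, which share no replicate numbers.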
